A study of Mus musculus with 6 samples.

Results

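The p53 pathway was followed through 32 genes in MCEC, a line labelled as mouse cardiac endothelial cells, with and without knockdown of the giant atypical cadherin Fat4. The genes were Trp53, which encodes p53, and 31 genes known as its targets or as regulators within its loop, each taken from the deposited table by its exact symbol. All 32 symbols were found among 78317 gene rows, and 29 had enough counts to be tested. The tested libraries were 3 of MCEC cells labelled ShFat4, which carry a short hairpin RNA against Fat4, and the others were 3 of wild-type MCEC cells. Messenger RNA was copied into cDNA and tagmented for every library, and the labels name no treatment or time point. The labels do not say whether the wild-type cells carried a non-targeting hairpin, whether the knockdown line was 1 clone or whether each library had its own culture. All p-values thus refer to the spread among these 6 libraries, and that spread may be technical.

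The protein p53 is a transcription factor that is held low by Mdm2 and Mdm4 and released by DNA damage, oncogene activity or disturbed ribosome assembly. Once active it binds a site made of paired decamers and switches on genes that halt the cell cycle, repair DNA or start apoptosis, along with Mdm2, Ppm1d and other genes that switch p53 off again. In endothelium it is known for restraining proliferation and for sensitising cells to death. MCEC stocks are commonly described as immortalised with a viral large T antigen, a protein that binds and inactivates p53. The labels do not state this, and its part in the levels given here was not tested.

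Promoter sequences that resemble the p53 binding site are shown first, because binding near the gene is the known route by which p53 switches its targets on. RefSeq promoter windows on GRCm38.p6, each of 250 bases before and 50 bases after a transcript start, were held for 24 members. The windows were searched for the p53 full-site consensus, which reads the same on both strands. No spacer was allowed between the decamers, both cores had to be intact, and up to 3 mismatches were accepted elsewhere. A match was present for 5 of the 24 members (20.8%) and for 0.673% of all 27025 genes with a window. The members are genes known as p53 targets or regulators, so this contrast is no independent evidence. Of 33 member windows, 25 had the bases after their start within a GENCODE transcript of the gene. The capitals below mark the 20 bases of each match, and lower case marks flanking bases of the promoter, which are left out for Aen.
Cdkn1a, chr17:29090908-29090967, plus strand, 1 mismatch: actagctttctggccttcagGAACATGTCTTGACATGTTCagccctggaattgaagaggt
Rps27l, chr9:66946276-66946335, plus strand, 1 mismatch: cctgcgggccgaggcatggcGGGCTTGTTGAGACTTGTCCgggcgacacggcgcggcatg
Bbc3, chr7:16309466-16309525, plus strand, 3 mismatches: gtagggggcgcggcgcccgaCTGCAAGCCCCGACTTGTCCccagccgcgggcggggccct
Trp53, chr11:69580264-69580323, plus strand, 3 mismatches: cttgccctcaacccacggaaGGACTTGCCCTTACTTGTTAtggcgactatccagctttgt
Aen, chr7:78895937-78895956, plus strand, 3 mismatches: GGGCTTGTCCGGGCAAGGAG
The Cdkn1a match lies in the window of its more upstream transcript start, where its first base is at -51 from that start. The matches of Rps27l, Bbc3 and Trp53 begin at -117, -97 and -75 from a start. The Aen match lies after 1 of its starts, with its first base at 10, and begins at -121 from another. Of these 5 genes, Rps27l was the 1 whose RNA passed the test in the comparison below, where 17.4% of all genes tested did. Sequence outside the windows was not searched. Pmaip1, Perp, Trp53inp1, Tnfrsf10b, Rrm2b, Ddb2, Xpc and Zmat3 have no window in the table.

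Library totals lay between 10305810 and 11870091 counts. Fat4 had 0.76, 0.98 and 0.82 CPM (counts per 1000000, scaled by the TMM method) in knockdown replicates 1, 2 and 3 and 0.97, 1.94 and 2.56 CPM in control replicates. Its log2 fold change was -1.17 (SE 0.35, edgeR quasi-likelihood adjusted p = 0.033), but control replicate 1 lay within the knockdown range. Leaving out any library other than control replicate 1 ended the call, with adjusted p up to 0.205. Of 12 endothelial markers, 9 averaged under 1 CPM in both groups and Tie1, Vwf, Erg, Cldn5 and Emcn were at 0 in every library. Endothelial markers summed to 76.2 to 80.8 CPM in knockdown and 83.8 to 93.6 CPM in control libraries, and 2 of the 3 that could be tested fell. Cardiomyocyte and leukocyte markers were scarce, with summed levels of 0.89 to 1.81 and 3.53 to 3.90 CPM in knockdown and 0.49 to 1.41 and 3.18 to 4.18 CPM in control libraries. Fibroblast markers summed to 1792 to 1956 CPM in knockdown and 2393 to 2477 CPM in control libraries. Of 6 tested, 1 passed as higher and 2 as lower, with 3 log2 fold changes above 0 and 3 below (-0.64 to 0.58). Mesothelial markers summed to 800.1 to 833 CPM in knockdown and 994 to 1080 CPM in control libraries. Of 8 tested, 0 passed as higher and 3 as lower, with 2 log2 fold changes above 0 and 6 below. Smooth muscle and pericyte markers summed to 693 to 755 CPM in knockdown and 604 to 680.2 CPM in control libraries. Of these 7 markers, 5 averaged under 1 CPM in both groups, so the sum rests on few genes. Called markers made up 66.7% of 3 tested endothelial, 50% of 6 fibroblast and 37.5% of 8 mesothelial genes. They were 50% of 2 smooth muscle and pericyte genes, and 0% of 1 cardiomyocyte and 1 leukocyte gene. Over all genes tested the share was 17.4%, with 8.94% higher and 8.44% lower. The part of these cell type markers in the results was not tested. In bulk samples fewer cells of a type and less RNA per cell cannot be told apart.

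Of the 29 tested members, 7 rose in the knockdown and 0 fell (edgeR, quasi-likelihood, with p adjusted by Benjamini-Hochberg over all 13372 genes tested and a threshold of 0.05). The members that rose were Plk2, Ccng1, Rps27l, Perp, Mdm2, Trp53inp1 and Btg2. Trp53 itself and Cdkn1a, the target most often used as a readout of p53, did not pass the test. Called members made up 24.1% of those tested, against 17.4% of all genes, of which 8.94% were higher and 8.44% lower. At an unadjusted p under 0.05, 9 members were higher and 2 were lower. The share of all genes at that looser cut-off is not given, so such counts, here and for the lists below, lack a background. By limma-voom, 7 members were higher and 0 lower, beside 1177 higher and 1054 lower of all 13372 genes. For DESeq2 the numbers over all genes were 910 higher and 625 lower. DESeq2 called 4 higher and 0 lower of the 25 members to which it gave an adjusted p; Perp, Trp53inp1, Fas and Dglucy got none. The median log2 fold change was 0.02 over the 29 members and -0.01 over all genes tested. With library-size scaling the median was -0.04 over the members and -0.07 over all genes tested, with 5 members higher and 2 lower. Without control replicate 2 or knockdown replicate 1, 1 member was called, without control replicate 3 or knockdown replicate 2 there were 3, and without knockdown replicate 3 there were 2. Without control replicate 1, 5 were called higher and 1 lower. Over all genes, 2324 were called with all 6 libraries. Leaving out control replicate 1, 2 or 3 gave 3077, 1029 and 1226 in turn. Leaving out knockdown replicate 1, 2 or 3 gave 1216, 1165 and 1789 in turn, so the number of calls moved across the whole table.

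The groups did not overlap for 15 of the 29 members (51.7%), 11 of them higher and 4 lower in the knockdown. Over all genes tested the groups did not overlap for 34.9%, higher for 17.4% and lower for 17.5%. Most differences were small, with 26 of 29 members under 0.5 in absolute log2 fold change, as were 12465 of all 13372 genes tested. The spread between replicates was small too, with a median coefficient of variation of 6.62% in knockdown and 6.82% in control libraries.

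**Figure D1:**
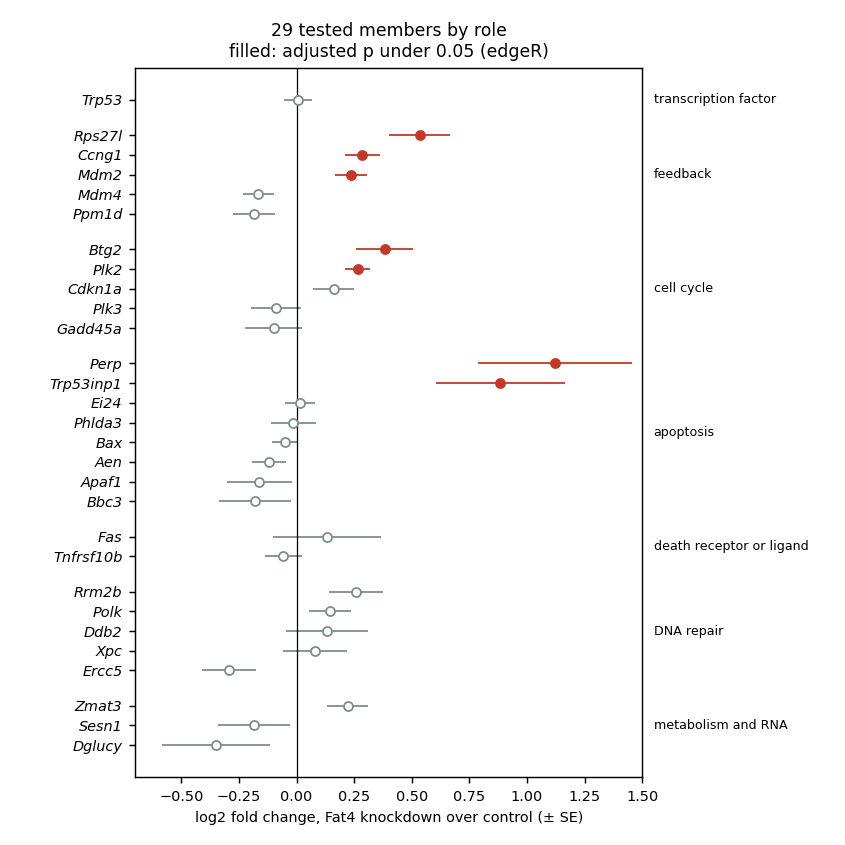
Log2 fold change of each tested member, Fat4 knockdown over control, with its SE (edgeR), in order of role. Filled points mark the 7 members with adjusted p under 0.05, all to the right of 0. Trp53 sits at 0.01 and the DNA repair genes lie on both sides of 0.

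The members covered a wide range of levels. Compared per length, as transcripts per 1000000 (TPM), Rps27l was the most abundant at 2471 ± 147 TPM in knockdown and 1867 ± 283 TPM in control libraries (SD, n = 3 each). Bax followed at 217 ± 5.45 TPM in knockdown and 246 ± 5.31 TPM in control libraries, and Trp53 came next at 173 ± 6.90 and 189 ± 18.8 TPM (SD, n = 3 each). The Trp53 level in control libraries stood at the 94.6th percentile of all genes tested. Cdkn1a, at 11.97 ± 0.37 TPM in knockdown and 11.7 ± 1.70 TPM in control libraries (SD, n = 3), stood at the 56.5th percentile. The ratio of Trp53 to Cdkn1a in TPM was 14.4 in knockdown and 16.1 in control libraries. Neighbours in the middle of the order, such as Ppm1d, Plk3 and Cdkn1a in control libraries, lay within 1 SD of each other. TPM was used here to order genes within a group and not for the test between groups.

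**Figure D2:**
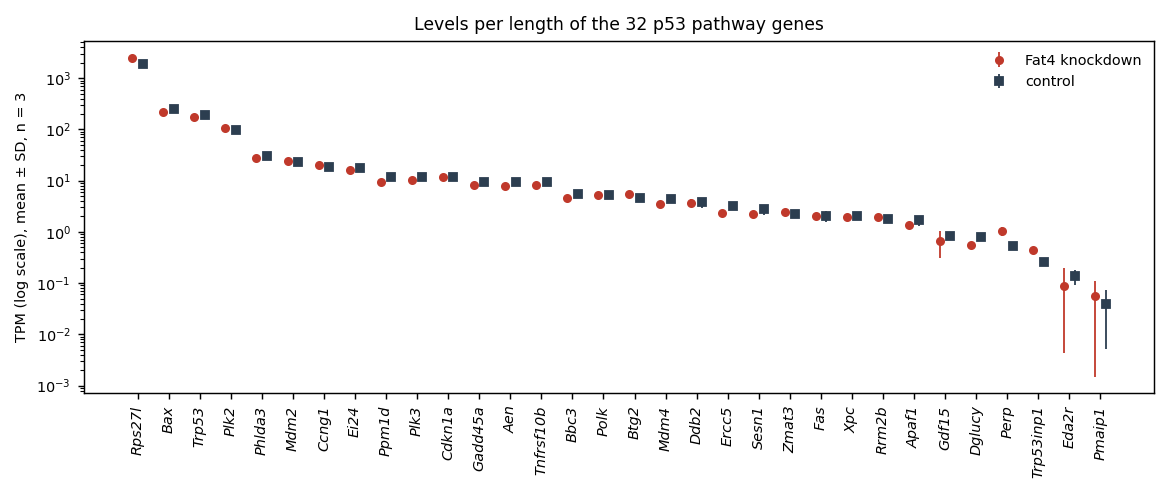
Level per length of all 32 members in TPM on a log axis, ordered by the control mean, as mean ± SD of 3 libraries per group; a bar that would reach 0 is drawn short. Rps27l, Bax, Trp53 and Plk2 stand above the rest, from 97.1 TPM upward in control libraries, and Eda2r and Pmaip1 lie lowest.

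Trp53 (ENSMUSG00000059552, GRCm39 chromosome 11, exons spanning 69471185 to 69482699) encodes the transcription factor at the centre of the pathway. It had 447, 417 and 408 CPM in knockdown replicates 1, 2 and 3 and 394, 435 and 437 CPM in control replicates. The groups overlapped throughout. Its log2 fold change was 0.01 (SE 0.06, edgeR adjusted p = 0.963). The 19 alternative settings placed it between -0.05 and 0.07, each on the same side of the threshold.

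Genes of the p53 feedback loop moved unequally, with 3 of 5 higher and 0 lower (60% called, beside 17.4% of all genes). At an unadjusted p under 0.05, 3 were higher and 1 lower, and DESeq2 and limma-voom each called the number that edgeR did. Mdm2 (ENSMUSG00000020184, chromosome 10, 117524780 to 117546663) encodes the ubiquitin ligase that marks p53 for degradation. It had 72.7, 71.1 and 84.1 CPM in knockdown and 67.5, 62.4 and 63.6 CPM in control libraries. Every knockdown library was above every control library, with a log2 fold change of 0.24 (SE 0.07, edgeR adjusted p = 0.032). The Mdm2 call was lost with library-size scaling (adjusted p = 0.0994) and in 4 of the 6 fits without 1 library, up to 0.152 without knockdown replicate 3, the highest library.

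Mdm4 encodes the relative of Mdm2 that holds p53 inactive by binding its activation domain. It had 31.6, 31.99 and 31.7 CPM in knockdown and 34.9, 36.4 and 35.5 CPM in control libraries. The groups did not overlap and lay the other way round from Mdm2, but the difference did not pass the test (log2 fold change -0.17, SE 0.07, edgeR adjusted p = 0.112). It passed with library-size scaling (-0.22, adjusted p = 0.0427). In TPM, the ratio of Mdm2 to Mdm4 was 6.98 in knockdown and 5.27 in control libraries.

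Ccng1, whose product cyclin G1 recruits a phosphatase to Mdm2, had 45.4, 39.4 and 43.7 CPM in knockdown and 37.3, 34.8 and 33.7 CPM in control libraries. All knockdown libraries lay above the controls (log2 fold change 0.28, SE 0.08, edgeR adjusted p = 0.0167). Correction for GC content and exon length ended this call (0.21, adjusted p = 0.0771), as did leaving out any 1 of control replicates 2 and 3 and knockdown replicates 1 and 3. Ppm1d, the phosphatase Wip1 that removes phosphates from p53 and from checkpoint kinases, had 18.3, 17.6 and 19.4 CPM in knockdown and 18.9, 21.8 and 22.1 CPM in control libraries. Its groups overlapped and it did not pass the test (log2 fold change -0.19, SE 0.09, edgeR adjusted p = 0.172).

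Rps27l (ENSMUSG00000036781, chromosome 9, 66853368 to 66856798) encodes a ribosomal protein paralogue that binds Mdm2 and is induced by p53. It had 1279, 1291 and 1102 CPM in knockdown and 1024, 820.5 and 693 CPM in control libraries. The groups did not overlap, although the control libraries spread widely and control replicate 1 came close to knockdown replicate 3. Its log2 fold change of 0.53 (SE 0.13, edgeR adjusted p = 0.0298) became 0.35 after correction for GC content and exon length, where it still passed (adjusted p = 0.00567). The call was lost without control replicate 2, knockdown replicate 1 or knockdown replicate 2, with adjusted p from 0.0703 to 0.089.

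The rise of Rps27l came in libraries where ribosomal protein genes were also higher. Of 78 cytosolic ribosomal protein genes, a set taken by symbol and without Rps27l, 48 rose and 0 fell (median log2 fold change 0.22). The called share was 61.5%, beside 17.4% of all genes. There were 60 higher and 0 lower at an unadjusted p under 0.05, 52 higher and 0 lower by DESeq2 and 51 and 0 by limma-voom. Without control replicate 2 there were 21 higher, without knockdown replicate 1 there were 25, and without knockdown replicate 2 there were 23. They took 13.7% ± 0.36 of counts in knockdown and 11.98% ± 0.61 in control libraries (SD, n = 3). The shares of the groups did not overlap, and an exact permutation test, two-sided, gave p = 0.1, which is as low as 3 libraries a group permit. Only 3 of the 78 had a larger log2 fold change than Rps27l. Rps27, the paralogue with a closely similar coding sequence, rose by a log2 fold change of 0.45 (SE 0.07, edgeR adjusted p = 0.00117). Deposited counts of Rps27l were not whole in any of the 6 libraries, as estimated counts of features that share reads can be, so its count is uncertain. The part of the ribosomal protein genes in the rise of Rps27l was not tested.

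**Figure D3:**
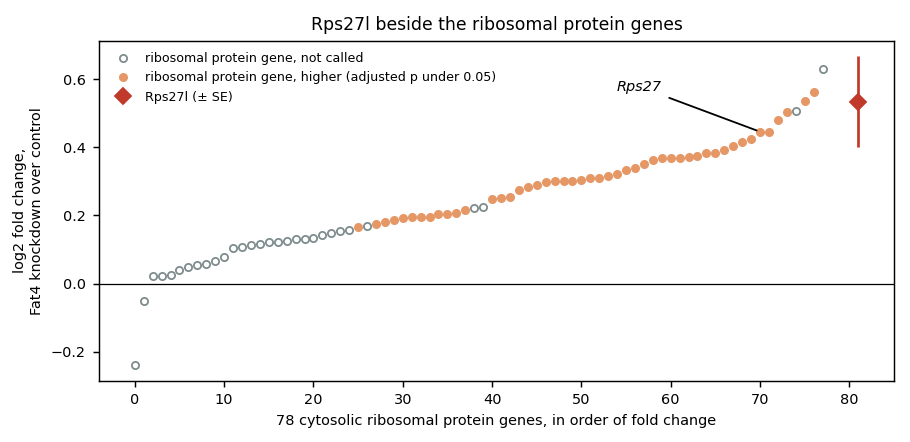
Log2 fold change, Fat4 knockdown over control, of 78 ribosomal protein genes in rising order, with Rps27l (± SE) at the right. Filled circles mark the 48 genes that rose. Rps27l at 0.53 stands near the top of the range and Rps27 at 0.45 just below it.

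Among genes that act on the cell cycle, 2 of 5 rose and 0 fell (40% called, beside 17.4% of all genes). There were 2 higher and 0 lower at an unadjusted p under 0.05, 1 and 0 by DESeq2 and 2 and 0 by limma-voom. Plk2 (ENSMUSG00000021701, chromosome 13, 110531580 to 110537378), a polo-like kinase induced by p53 and by growth factors, had 285, 294 and 289 CPM in knockdown and 233, 242 and 247 CPM in control libraries. The groups stood well apart, with 289 ± 4.57 CPM in knockdown and 240.5 ± 6.92 CPM in control libraries (SD, n = 3). Its log2 fold change was 0.27 (SE 0.05, edgeR adjusted p = 0.00412). Of the 7 members that rose, Plk2 was the 1 whose call held under all 19 alternative settings, with log2 fold changes of 0.21 to 0.28 and adjusted p from 0.000319 to 0.0332.

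Btg2, an antiproliferative cofactor of messenger RNA deadenylation, had 8.30, 9.60 and 8.89 CPM in knockdown and 6.51, 6.45 and 7.49 CPM in control libraries. No library of 1 group lay within the other (log2 fold change 0.38, SE 0.12, edgeR adjusted p = 0.042). The call sat near the threshold and was lost under 11 of 18 alternatives, among them DESeq2 (adjusted p = 0.163) and 5 of the 6 fits without 1 library.

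Cdkn1a (ENSMUSG00000023067, chromosome 17, 29309950 to 29319701) encodes p21, the cyclin-dependent kinase inhibitor through which p53 arrests cells in G1. It had 25.4, 27.2 and 24.7 CPM in knockdown and 20.1, 24.5 and 24.3 CPM in control libraries. The lowest knockdown library was just above the highest control library. The log2 fold change was 0.16 (SE 0.09, edgeR adjusted p = 0.232), and no alternative setting brought it past the threshold (adjusted p from 0.0827 to 0.521). Plk3, another polo-like kinase of the stress response, and Gadd45a, a binding partner of Pcna and p21, had log2 fold changes of -0.09 and -0.10 with overlapping groups (edgeR adjusted p = 0.626 and 0.633). Exons of Gadd45a overlap a long noncoding RNA on the opposite strand over 56.1% of their length, and the sources used here do not give the strand setting of the counter.

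**Figure D4:**
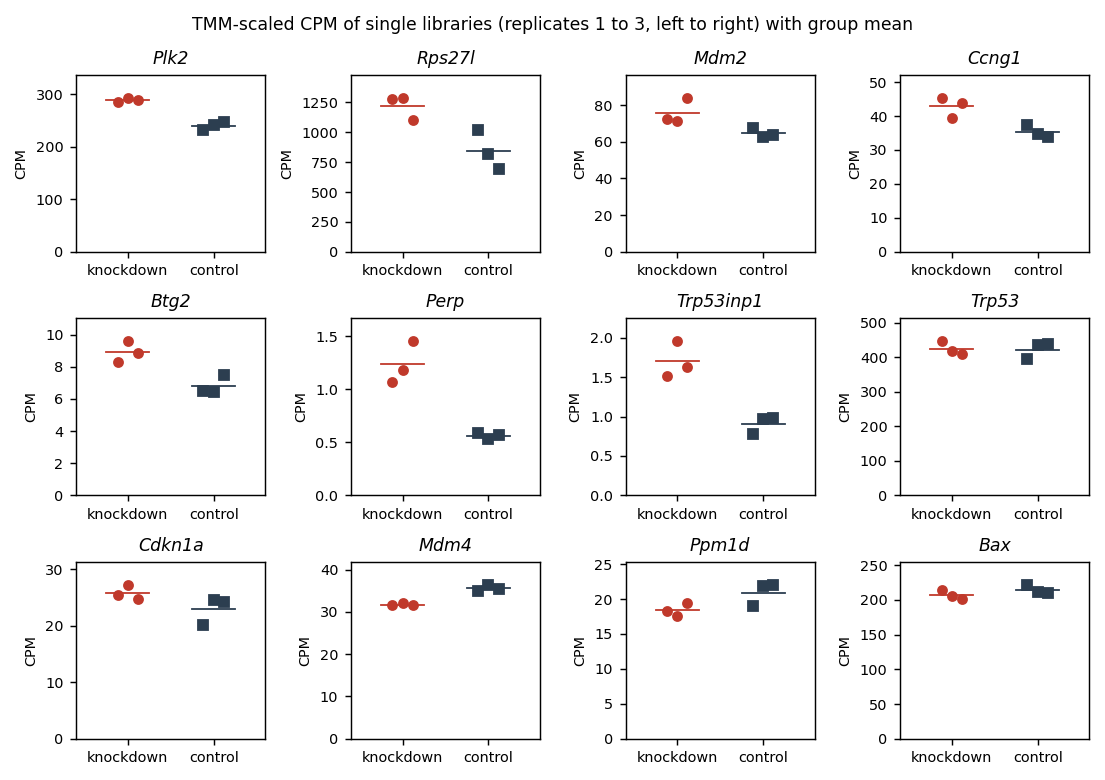
TMM-scaled CPM of every library for the 7 members that rose and for Trp53, Cdkn1a, Mdm4, Ppm1d and Bax, each axis starting at 0, with group means as lines. Plk2 shows the tightest groups among the 7, Perp and Trp53inp1 lie under 2 CPM, and Mdm4 stands lower in the knockdown without passing the test.

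Of 8 tested genes of apoptosis, 2 rose and 0 fell (25% called, beside 17.4% of all genes). The numbers were the same by limma-voom and at an unadjusted p under 0.05. DESeq2 gave neither of the 2 an adjusted p and called 0 of the other 6. Perp, a desmosomal membrane protein known as an apoptosis effector of p53, had 1.07, 1.18 and 1.45 CPM in knockdown and 0.58, 0.53 and 0.57 CPM in control libraries. These CPM rest on 12, 12 and 16 counts in knockdown and 6, 6 and 7 counts in control libraries. The groups were clearly separate, at a log2 fold change of 1.12 (SE 0.34, edgeR adjusted p = 0.0304). Trp53inp1, a nuclear body protein that promotes p53 activity and autophagy, had 1.52, 1.96 and 1.63 CPM in knockdown and 0.78, 0.97 and 0.98 CPM in control libraries. It rested on 17, 20 and 18 counts in knockdown and 8, 11 and 12 in control libraries (log2 fold change 0.88, SE 0.28, edgeR adjusted p = 0.039). The Perp call was lost in 5 and the Trp53inp1 call in all 6 of the fits without 1 library, and neither gene passed when the filter on low counts was removed.

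The effectors of the mitochondrial route did not pass the test. Bax, the pore-forming member of the BCL2 family, had 214, 206 and 201 CPM in knockdown and 222, 211 and 211 CPM in control libraries. The groups overlapped, with a log2 fold change of -0.05 (SE 0.06, edgeR adjusted p = 0.583). Bbc3, the BH3-only protein Puma, was scarce at 5.80, 5.93 and 5.63 CPM in knockdown and 8.16, 6.18 and 5.45 CPM in control libraries. Its control libraries spanned the knockdown range (log2 fold change -0.18, SE 0.15, edgeR adjusted p = 0.469). Pmaip1, the BH3-only protein Noxa, was hardly detected, with 2, 1 and 0 counts in knockdown and 1, 0 and 1 in control libraries, and was not tested.

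Apaf1, the scaffold of the apoptosome, had a log2 fold change of -0.16 (SE 0.14, edgeR adjusted p = 0.481) with overlapping groups. Aen, a nuclease that digests DNA in dying cells, was lower in every knockdown library, at 26.9, 27.4 and 29.4 CPM in knockdown and 29.7, 30.4 and 31.0 CPM in control libraries. That difference did not pass the test (log2 fold change -0.12, SE 0.07, edgeR adjusted p = 0.29). Ei24, an endoplasmic reticulum protein of autophagy, and Phlda3, an inhibitor of Akt, lay at 0.02 and -0.01 on the log2 scale.

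No death receptor or secreted target passed the test in edgeR, DESeq2 or limma-voom, and 0 reached an unadjusted p under 0.05 in either direction. Fas, the receptor of Fas ligand, averaged 2.52 ± 0.37 CPM in knockdown and 2.33 ± 0.63 CPM in control libraries (SD, n = 3). Tnfrsf10b, the mouse TRAIL receptor, averaged 27.4 ± 0.46 CPM in knockdown and 28.4 ± 2.23 CPM in control libraries (SD, n = 3). Both had overlapping groups. Gdf15, a stress-induced cytokine, and Eda2r, a receptor of ectodysplasin A2, had at most 12 and 8 counts in any library and were left out by the filter on low counts.

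DNA repair targets stood at low levels, and none of 5 was called by edgeR, DESeq2 or limma-voom, with 1 higher and 1 lower at an unadjusted p under 0.05. Rrm2b, the p53-inducible subunit of ribonucleotide reductase, had 11.6, 10.1 and 10.6 CPM in knockdown and 7.87, 9.54 and 9.56 CPM in control libraries. Polk, a translesion polymerase, had 18.4, 17.05 and 17.9 CPM in knockdown and 16.9, 14.8 and 16.5 CPM in control libraries. The groups did not overlap for either gene, at log2 fold changes of 0.26 (SE 0.12, edgeR adjusted p = 0.139) and 0.15 (SE 0.09, adjusted p = 0.296).

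Ercc5, the endonuclease XPG of nucleotide excision repair, had 8.75, 7.94 and 8.53 CPM in knockdown and 9.22, 11.3 and 10.3 CPM in control libraries. It was lower in each knockdown library without passing the test (log2 fold change -0.29, SE 0.12, edgeR adjusted p = 0.0943), and passed without control replicate 1 (-0.36, adjusted p = 0.0428) and with library-size scaling (-0.35, adjusted p = 0.0483). The damage sensors Ddb2 and Xpc had log2 fold changes of 0.13 (SE 0.18) and 0.08 (SE 0.14) with overlapping groups. Ddb2 shares 23.8% of its exon bases with Acp2 on the opposite strand, which reached 301 counts where Ddb2 reached 76, so its count is uncertain.

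Of 3 members that act in metabolism or on RNA, none was called by edgeR, DESeq2 or limma-voom, with 1 higher and 0 lower at an unadjusted p under 0.05. Zmat3, an RNA-binding regulator of splicing, had 16.6, 16.3 and 17.1 CPM in knockdown and 14.0, 14.5 and 14.3 CPM in control libraries. Its groups were tight and did not overlap (log2 fold change 0.22, SE 0.09, edgeR adjusted p = 0.0961), and it passed after correction for GC content and exon length (0.31, adjusted p = 0.0253). Sesn1, an inhibitor of mTORC1 signalling, had a log2 fold change of -0.18 (SE 0.15). Dglucy, which encodes a D-glutamate cyclase, had 1.79, 1.37 and 1.54 CPM in knockdown and 2.04, 1.94 and 2.04 CPM in control libraries (log2 fold change -0.35, SE 0.23, edgeR adjusted p = 0.38).

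Other genes known as p53 targets lay lower where they changed. Of 23 tested genes of a second target list, whose median log2 fold change was -0.15, 6 fell and 0 rose (26.1% called, beside 17.4% of all genes), with 9 lower and 2 higher at an unadjusted p under 0.05, 3 lower and 0 higher by DESeq2 and 6 and 0 by limma-voom. Ptp4a3, a phosphatase gene whose fall was known when the list was drawn up, had 4.82 ± 0.62 CPM in knockdown and 10.9 ± 1.79 CPM in control libraries (SD, n = 3). Its log2 fold change was -1.18 with an SE of 0.15 (adjusted p by edgeR = 0.00016). The epoxide hydrolase gene Ephx1 fell by 0.39, the adenylate kinase gene Ak1 by 0.34 and the nuclear body gene Pml by 0.27 on the log2 scale. Without control replicate 2 or knockdown replicate 2, 2 genes of this list were called lower, without control replicate 3 there were 3, and without control replicate 1 still 6. The 7 rises among the 32 members and the 6 falls in this list come from the same fit.

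Upstream of p53, 2 of 20 tested regulators rose and 1 fell (median log2 fold change 0.04), a called share of 15% beside 17.4% of all genes. At an unadjusted p under 0.05 there were 4 higher and 2 lower, by DESeq2 2 higher and 0 lower and with library-size scaling 1 higher and 2 lower. The risers were Rpl5, at 0.33 (SE 0.06, edgeR adjusted p = 0.00296), and Rpl11, at 0.17 (SE 0.05, adjusted p = 0.0433), ribosomal proteins that bind Mdm2 and belong to the ribosomal protein genes described above. Hipk2, a kinase that phosphorylates p53, fell by 0.29 on the log2 scale (SE 0.08, edgeR adjusted p = 0.0204). Leaving out any library other than control replicate 1 gave 1 higher and 0 lower, and without control replicate 1 there were 3 higher and 4 lower.

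Cell cycle genes that p53 lowers through p21 and the DREAM repressor complex were mostly not called. Of 32 tested, 4 rose and 1 fell (median log2 fold change -0.03), a called share of 15.6% beside 17.4% of all genes. At an unadjusted p under 0.05 there were 7 higher and 5 lower, and the balance turned with library-size scaling, at 3 higher and 5 lower. Pcna, the sliding clamp of DNA replication, had 255 ± 11.3 CPM in knockdown and 190.5 ± 13.6 CPM in control libraries (SD, n = 3). Its log2 fold change was 0.42 with an SE of 0.06 (adjusted p by edgeR = 0.000582). Cyclin E2 gene Ccne2 (0.43) and the thymidylate synthase gene Tyms (0.27) rose as well, and the spindle checkpoint gene Bub1b fell by 0.23. Fits without 1 library called 2 to 5 genes of this list higher and 0 to 6 lower, the 6 without control replicate 1 and the 2 higher without control replicate 2 or knockdown replicate 2.

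**Figure D5:**
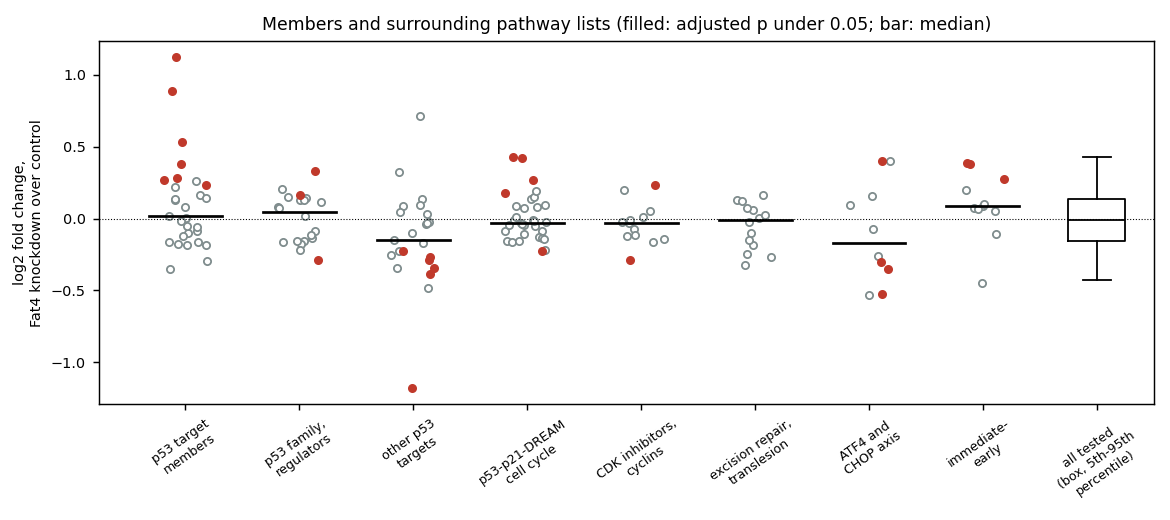
Log2 fold change, Fat4 knockdown over control, of each tested gene in the 32 p53 genes and in 7 lists around them, with medians as bars and all genes tested as a box. Filled points passed the test; those of the p53 genes lie above 0 and those of the second target list below it.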

How the data were processed

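Messenger RNA libraries of MCEC cells, 3 Fat4 knockdown and 3 wild-type control, were compared. The build GRCm39 and these tools are listed, per the submitters' processing notes, with no order given: STAR 2.7.11, fastp 0.24.0, SAMtools 1.22.1, FastQC 0.12.1 and MultiQC 1.32. The sources used here do not give the counter, its strand setting or the annotation release. The deposited table holds estimated counts per gene, 29.0% of the nonzero ones not whole (tolerance 1e-06), and CPM values, which as deposited are counts per 1000000 of each library. Gene lengths are also the authors'. Counts were rounded, 92 spike-in rows left out, genes filtered with filterByExpr, libraries scaled by TMM and the fit made with edgeR 4.0.16 in R 4.3.3 (glmQLFit with its robust option, glmQLFTest). The SE is the log2 fold change over the square root of F. CPM in the text use TMM-scaled library sizes, and TPM divide by the deposited exon length. A repeated symbol went to its row of highest summed count, which concerned 0 members. The check for GC content used GENCODE transcripts on GRCm38, matched by gene identifier for 95.6% of genes tested, with trends fitted by mgcv 1.9-3. Alternatives were other scalings, filters, rounding, DESeq2 1.42.0, limma 3.58.1 (voom), fits without each library, a replicate block and, added after seeing the data, the non-robust option and the block with GC correction. The robust option was taken up after an unrobust fit had been seen, because an earlier account of these data had used it.

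The members, lists and tests were chosen with earlier results of these data known, so the counts are no independent evidence. Named were all members, and up to 4 called genes of smallest adjusted p in the lists around them. One result is not reported here. No pair of libraries in a group agreed within sampling noise (chi-square test of counts), so all 6 were kept. The workflow was tested on simulated counts. A count of 0 allows 3 counts, or 0.25 to 0.29 CPM per library, which covers counting error only.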

Additional observations from a re-analysis of the deposited data

How the results depend on the processing

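Over 19 alternatives and 29 tested members, 489 of 536 fits of a single member stayed on the same side of the threshold. The rest were 43 that lost a call and 4 that gained one, with 0 reversed. Only the 7 called members had a call to lose. Btg2 lost it in 11 of 18 fits, Trp53inp1 in 10 and Perp in 8 of 17 each. Of 19 fits each, Ccng1 lost it in 6, Mdm2 in 5, Rps27l in 3 and Plk2 in 0. Fas and Dglucy, with no DESeq2 adjusted p, were counted there as staying on the same side. The count of 7 called members, all higher, moved to 4, all higher, with DESeq2, without a filter on low counts, at 10 CPM or more in 3 libraries (which leaves out the scarce members) and with a replicate block. DESeq2 gave no adjusted p for Perp and Trp53inp1, so of the 3 calls absent there Btg2 alone was tested and missed. With GC and length correction alone the count was 5, all higher, with Ccng1, Btg2 and Trp53inp1 lost and Zmat3 gained. With GC and length correction plus the block it was 3, all higher. Library-size scaling gave 2 lower members and a member median of -0.041, beside -0.069 over all genes tested. GC and length correction gave a member median of 0.070, beside 0.01 over all genes tested, with or without the block. Leaving out 1 library gave 1 to 6 called members, 1 to 5 higher, 0 to 1 lower and medians of -0.0008 to 0.05. Over all genes, 2324 changed, 1195 higher and 1129 lower. DESeq2 gave 1535 with 625 lower, library-size scaling 1740 lower, GC and length correction 679 lower, and with the block 1364 with 514 lower. Leaving out 1 library gave 1029 to 3077 changed, 527 to 1624 higher and 502 to 1453 lower. Fat4 missed the threshold with limma-voom (-1.04), GC and length correction (-1.01) and that with the block (-0.97), and ranged from -1.44 to -0.82 without 1 library. The cause of these differences was not tested. Replicate numbers did not pair the libraries: deviations of same-numbered libraries correlated at -0.21, -0.05 and -0.05, and the block gave 2001 changed genes. At this depth Pmaip1, Eda2r and Gdf15 could not be tested.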

Other observations

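Lists beside the p53 pathway that share targets with it are read against the 17.4% called among all genes tested. On the ATF4 and CHOP axis, which also drives Gdf15 and Bbc3 under stress of the endoplasmic reticulum, 1 of 10 tested genes rose and 3 fell (40% called, median log2 fold change -0.17). Atf5 had 98.3 ± 1.30 CPM in knockdown and 126 ± 3.10 CPM in control libraries (SD, n = 3) and fell by 0.35 on the log2 scale (adjusted p by edgeR = 0.00113). Trib3 fell by 0.53 and Chac1 by 0.30 on the log2 scale, and Ddit3, which encodes CHOP, rose by 0.40. The rise of Ddit3 was not called by DESeq2, or without control replicate 2 or any 1 of the knockdown libraries. Of 11 tested immediate-early genes, a class to which Btg2 and Plk2 are often assigned, 3 rose and 0 fell (27.3% called, median log2 fold change 0.09), with 4 higher and 1 lower at an unadjusted p under 0.05 and 3 higher and 0 lower by DESeq2 and limma-voom. They were Fosl1 at 0.38, Dusp6 at 0.39 and Klf10 at 0.28. The movement of these genes was known when the lists were drawn up.

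Of 13 cyclin and kinase inhibitor genes, Cdkn1b, the p27 gene, rose by 0.23 and the cyclin D3 gene Ccnd3 fell by 0.29 on the log2 scale (15.4% called). Correction for GC content and exon length, with or without the replicate block, left 0 called in either direction. The Cdkn1b call was also lost with DESeq2, with library-size scaling, with no filter on low counts and without control replicate 2 or 3 or knockdown replicate 1 or 2, and without control replicate 1 there were 2 lower. Of 14 excision repair and translesion genes, edgeR and DESeq2 called 0 in either direction and limma-voom 1 lower, with 1 higher and 3 lower at an unadjusted p under 0.05; edgeR called 2 lower without control replicate 1 and 1 lower with library-size scaling, without mitochondrial and ribosomal protein genes and with either other filter on low counts.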
